A study of Mus musculus with 21 samples.

Results

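The genes described here are Trp53, which encodes the transcription factor p53, and 9 of its classic target genes: Mdm2, Cdkn1a, Ccng1, Btg2, Plk2, Pmaip1, Fas, Perp and Trp53inp1. They were chosen by name, with earlier results of these data known. All 10 were listed in each of the 3 deposited tables, out of 12404 genes listed in any table and 10238 listed in all 3. RNA sequencing covered 21 mouse libraries from fibroblasts (MEFs) of ICR embryos taken at 13.5 days and used at passage 2. They came in 3 tables of 7 libraries each: a MEF table, reprogramming cells in medium without vitamin C (Vc-) and reprogramming cells with it (Vc+). Reprogramming cells, labelled SKOM, had received retroviruses for Sox2, Klf4, Oct4 and c-Myc and were collected on day 5. Retroviral constructs were given for 48 hours: Flag with shLuc (the control), Dnmt1 (the maintenance DNA methyltransferase), shDnmt1 (a hairpin against it), Tet1CD (from Tet1, an enzyme that oxidises methylated cytosine) and shp53 (a hairpin against Trp53). The MEF table held MEF libraries with Flag+shLuc, Dnmt1, shDnmt1, shp53, shp53+shDnmt1 and Tet1CD. It also held a Flag+shLuc library labelled 5C and not MEF, a term that the labels do not explain. The column header of that library, X5CDay4, names a day. Each SKOM table held Flag+shLuc, Dnmt1, shDnmt1, shp53+shDnmt1, Tet1CD, Tet1CD+Dnmt1 and Tet1CD+shDnmt1. Each combination was 1 library, so the p53 hairpin came in 2 MEF libraries and in 1 library of each SKOM table, where shDnmt1 always came with it.

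p53 is held at a low level in unstressed cells because Mdm2, itself induced by p53, marks it for degradation. When DNA is damaged or an oncogene is active, p53 accumulates and raises genes that stop the cell cycle, such as Cdkn1a, and genes that promote cell death, such as Pmaip1, Fas and Perp. It lowers many cell cycle genes indirectly, through the p21 protein made from Cdkn1a, and in fibroblasts given reprogramming factors it is known as a barrier to their conversion.

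The deposited values were whole numbers that the authors had normalized within each table, with medians of 203 to 208 in the MEF table, 180 in Vc- and 226 in Vc+. They carried no sequencing depth, so no counting error was derived from them, and values are compared within a table unless stated. Within a table the sorted values of the libraries followed nearly the same list, on which Ccng1 sat so high that the next step down was 23.8% lower in the MEF control, 45.2% lower in the Vc- control and 25.2% lower in the Vc+ control. Small changes of Ccng1 were therefore not resolved, whereas the step was at most 2.78% for the other 9 genes. The 5C library stood apart: its log2 ratios to the other MEF-table libraries had SDs over genes of 1.57 to 1.71, against 0.223 to 0.749 among the others. All 11 fibroblast markers searched were listed in each table, against 5, 3 and 4 of 7 macrophage markers and 2, 5 and 6 of 8 epithelial markers in the MEF, Vc- and Vc+ tables. In these bulk samples, fewer cells with a transcript and less of it per cell cannot be told apart.

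p53 binds pairs of a short palindromic motif, the p53 consensus decamer. RefSeq start sites (GRCm38.p6, the same build as mm10) were given for 7 of the 10 genes: Trp53, Mdm2, Ccng1, Cdkn1a, Btg2, Plk2 and Fas. The decamer was present between 250 bases before and 50 bases after a start in 4 of these 7, against 9.55% of all genes with such a window and 8.36% of all 32851 windows. The motif reads the same on both strands, so each match counts once. The stretches before these 4 starts are printed because they hold a match, with the decamers in capitals. They run from 5′ to 3′ on the strand of the gene, and the position of a decamer counts back from the RefSeq start to its first base. The Ccng1 stretch holds 225 bases and stops 25 bases short of the RefSeq start, since the gene begins there in the files, whereas the other 3 end at their start. The stretches lie at chr11:69580109-69580358 (plus strand, decamer at -75), chr10:117710759-117711008 (minus, -186), chr11:40755312-40755536 (minus, -185) and chr17:29090729-29090978 (plus, -73 and -51).
Trp53: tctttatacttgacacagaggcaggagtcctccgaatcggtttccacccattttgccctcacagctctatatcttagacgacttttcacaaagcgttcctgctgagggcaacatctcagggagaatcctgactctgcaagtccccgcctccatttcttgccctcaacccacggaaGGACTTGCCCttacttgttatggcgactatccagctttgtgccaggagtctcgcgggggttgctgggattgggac
Mdm2: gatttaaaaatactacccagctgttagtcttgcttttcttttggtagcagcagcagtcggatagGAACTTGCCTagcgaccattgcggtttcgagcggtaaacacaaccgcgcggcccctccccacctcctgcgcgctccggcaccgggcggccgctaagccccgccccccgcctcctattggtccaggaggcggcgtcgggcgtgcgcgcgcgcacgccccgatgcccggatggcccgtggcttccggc
Ccng1: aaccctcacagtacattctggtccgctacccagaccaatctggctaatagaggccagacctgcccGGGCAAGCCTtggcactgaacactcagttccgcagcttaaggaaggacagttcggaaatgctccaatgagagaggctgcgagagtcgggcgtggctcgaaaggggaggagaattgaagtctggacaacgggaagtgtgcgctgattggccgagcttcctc
Cdkn1a: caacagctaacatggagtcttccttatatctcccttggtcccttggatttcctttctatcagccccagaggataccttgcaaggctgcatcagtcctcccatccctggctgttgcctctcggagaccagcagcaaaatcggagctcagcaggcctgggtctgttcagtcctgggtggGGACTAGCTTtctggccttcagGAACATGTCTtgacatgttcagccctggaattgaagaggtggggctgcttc
Cdkn1a alone carried 2 matches, GGACTAGCTT followed by GAACATGTCT. The stretch between them is longer than the decamer itself, so they are not an adjacent pair. Only exact matches were counted, so tgacatgttc, which directly follows GAACATGTCT and resembles it, was not. The share of all genes with 2 matches is not given. The second Cdkn1a start and the windows of Btg2, Plk2 and Fas held no match. A match is only a match of letters, and response elements outside these windows, such as that in the first intron of Mdm2, were not searched.

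Trp53 (ENSMUSG00000059552, chr11:69580359-69591873, plus strand) is the target of the hairpin, and its level is the check on the labels. In MEFs it stood at 157 with shp53 and 186 with shp53+shDnmt1, and at 1008, 1008, 966 and 888 in the control, Dnmt1, shDnmt1 and Tet1CD libraries, with 647 in 5C. Both hairpin libraries were below the other 5, as their labels say. In Vc- the levels ran from 453 with shp53+shDnmt1 through 594, 690 and 742 in the 3 Tet1CD libraries (with Dnmt1, with shDnmt1 and alone) to 810 with shDnmt1, 848 with Dnmt1 and 873 in the control. In Vc+ the same order of groups held: 621 with shp53+shDnmt1, then 803 (with shDnmt1), 962 (alone) and 1076 (with Dnmt1) with Tet1CD, and 1194, 1304 and 1365 in the control, shDnmt1 and Dnmt1 libraries. The hairpin library was thus the lowest for Trp53 in every table, but kept a larger share of the transcript in SKOM cells: 15.6% and 19.3% of the matched library in the MEF pairs, against 55.9% in Vc- and 47.6% in Vc+.

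**Figure D1:**
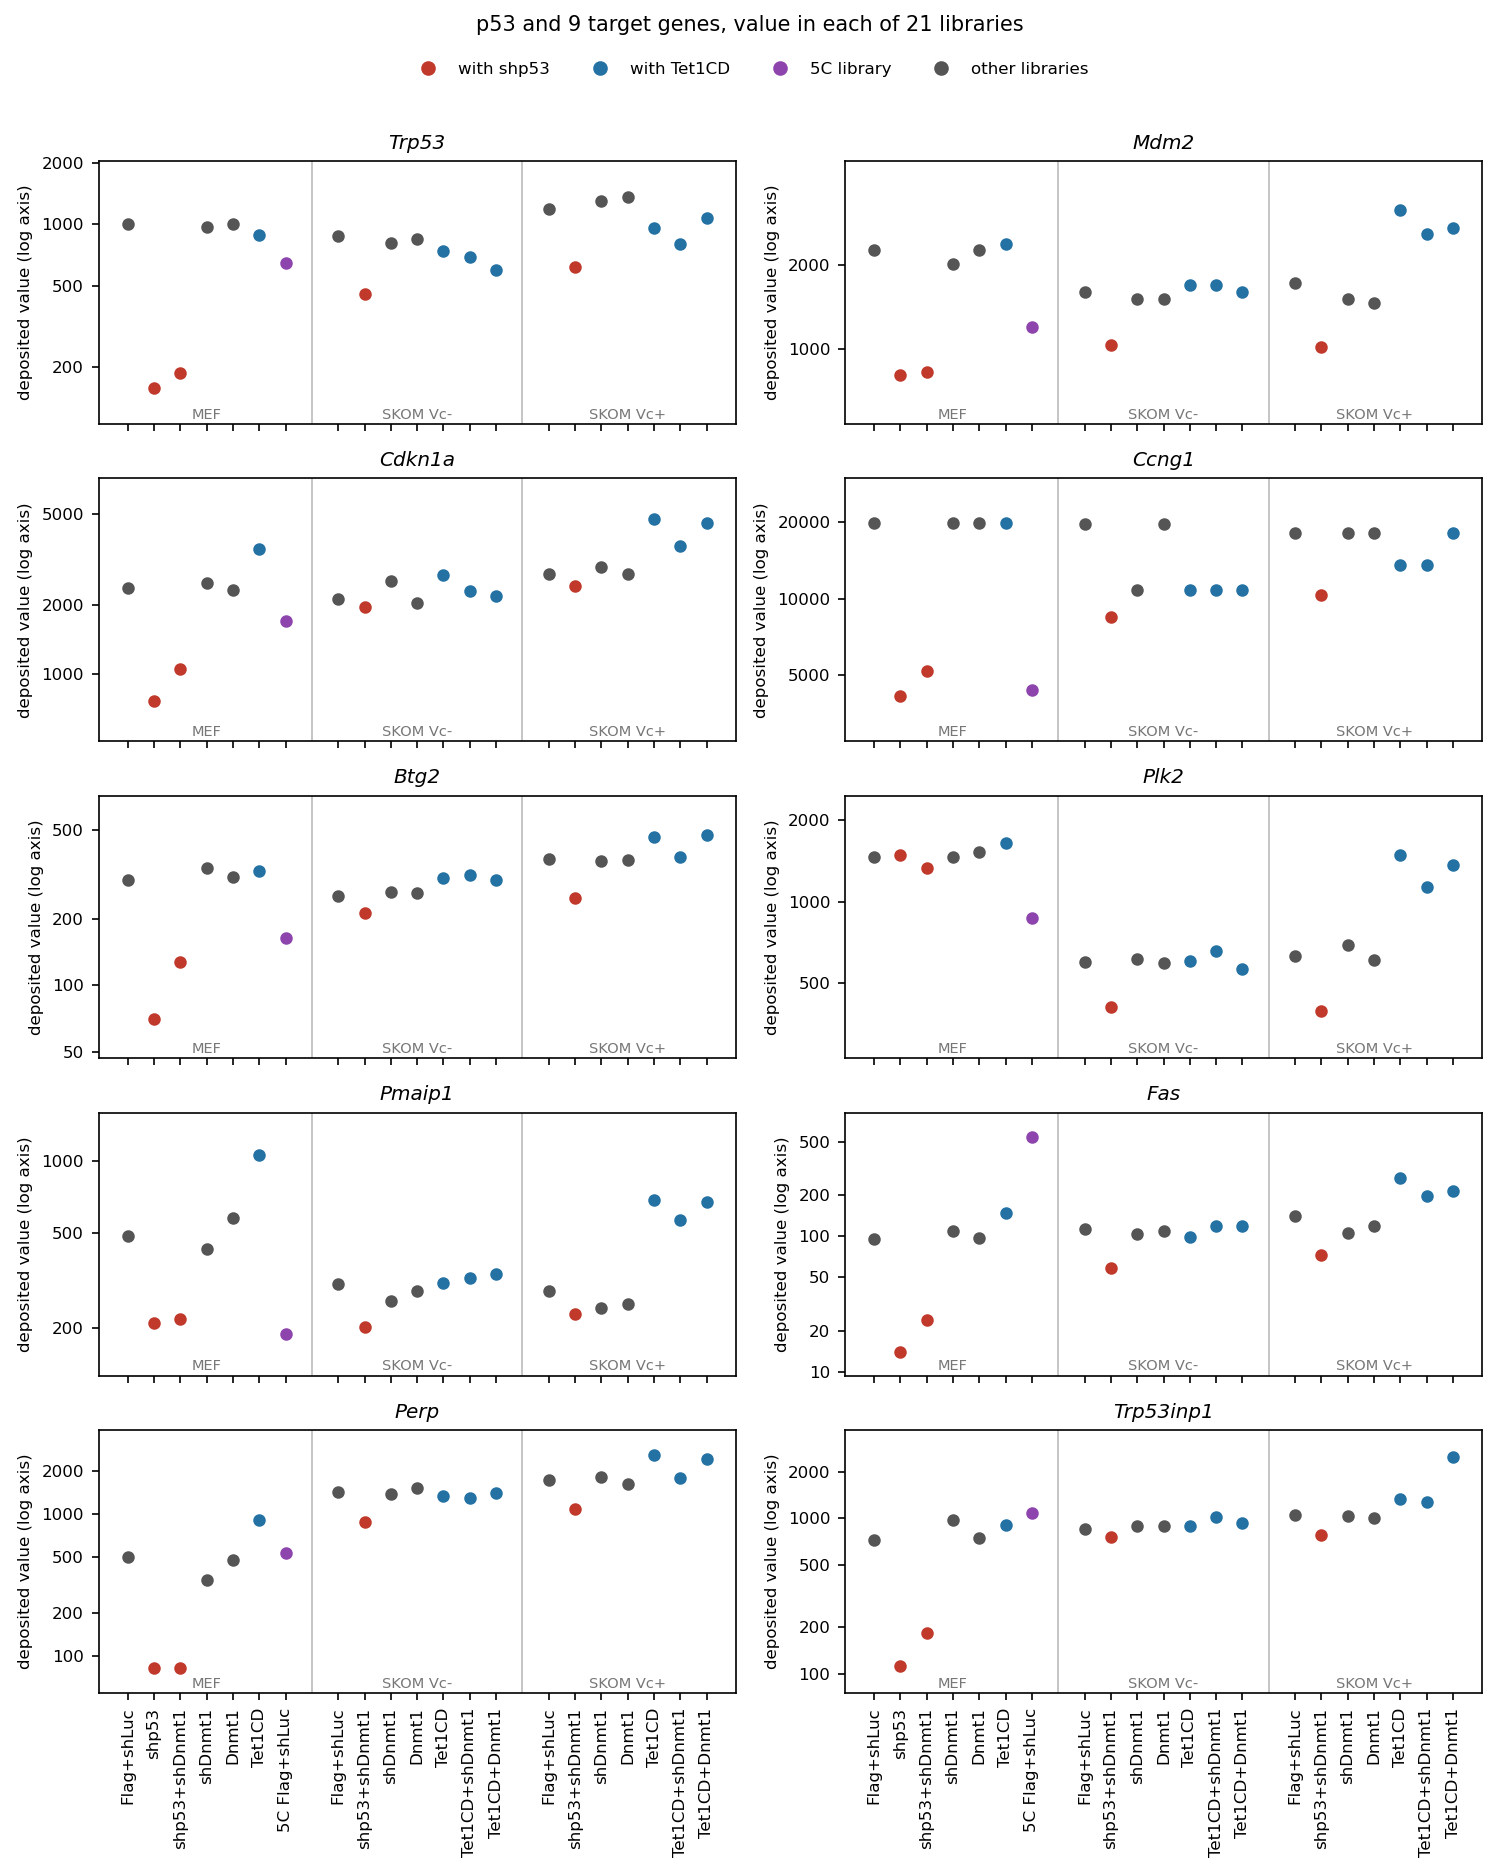
Deposited value (log axis) of each of the 10 genes in the 21 libraries, 1 point per library, in the MEF, SKOM Vc- and SKOM Vc+ tables, which are each normalized by themselves. Libraries with shp53 (red) are the lowest of their table for all 10 genes in SKOM cells, and Tet1CD libraries (blue) stand above the others in Vc+ for Mdm2, Cdkn1a, Plk2, Pmaip1, Fas, Btg2 and Trp53inp1.

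In MEFs the p53 hairpin lowered 9 of the 10 genes, among them the feedback regulator Mdm2, the arrest gene Cdkn1a and the death genes Fas, Perp and Pmaip1, by between 2.09 and 5.70-fold. Plk2 did not pass the test. Across all 11135 genes tested, 11.5% passed lower and 11.5% passed higher. The test was limma on log2(value + 5) over the control, shp53, shDnmt1 and shp53+shDnmt1 libraries, with terms for both hairpins, 1 residual degree of freedom and Benjamini-Hochberg adjustment over all genes at a threshold of 0.05. Fold changes are on this scale, which understates the change of low genes. Trp53 itself fell by 2.50 ± 0.12 (SE, log2; adjusted p = 0.00258).

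Of the genes that act on p53 or on the cell cycle, Mdm2 (ENSMUSG00000020184, chr10:117688888-117710758, minus strand), the ubiquitin ligase that limits p53, was 802 with shp53 and 826 with shp53+shDnmt1, against 2279 in the control and 2017 with shDnmt1. That was a fall to 35.2% and 41.0% of the matched libraries, or a log2 difference of -1.39 ± 0.10 (adjusted p = 0.00337). Cdkn1a (ENSMUSG00000023067, chr17:29090979-29099527, plus strand), which encodes the cyclin-dependent kinase inhibitor p21, was 767 and 1052 with the hairpin, against 2386 in the control and 2500 with shDnmt1. It remained at 32.1% and 42.1% of its matched libraries, a log2 difference of -1.44 ± 0.12 (adjusted p = 0.00381). Ccng1 (ENSMUSG00000020326, chr11:40748552-40755311, minus strand) encodes cyclin G1, a p53 target that feeds back on Mdm2. It was 4125 and 5195 with the hairpin and 19814 in the control, Dnmt1, shDnmt1 and Tet1CD libraries alike, so the drop of 2.10 ± 0.09 on the log2 scale (adjusted p = 0.00258) exceeded the step of the scale at its level. Btg2 (ENSMUSG00000020423, chr1:134075170-134079120, minus strand), an antiproliferative cofactor, was 70 with shp53, 127 with shp53+shDnmt1, 300 in the control and 338 with shDnmt1, a log2 difference of -1.70 ± 0.18 (adjusted p = 0.00470). Plk2 (ENSMUSG00000021701, chr13:110395044-110400844, plus strand), a polo-like kinase, was 1492 and 1331 with the hairpin against 1464 in both matched libraries. Its log2 difference was -0.05 ± 0.09, with a 95% interval of -0.28 to 0.17 (adjusted p = 0.697), so that a fall as large as that of the other 9 lay outside its interval.

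Of the genes tied to cell death and stress, Fas (ENSMUSG00000024778, chr19:34290659-34327770, plus strand), a death receptor, was 14 and 24 with the hairpin against 95 in the control and 109 with shDnmt1. Its log2 difference was -2.19 ± 0.24 (adjusted p = 0.00518) and carried the widest error of the 10. Perp (ENSMUSG00000019851, chr10:18845071-18857073, plus strand), a membrane protein of desmosomes that promotes p53-dependent death, was 82 in both hairpin libraries, 499 in the control and 343 with shDnmt1. It fell by 2.27 ± 0.16 (log2; adjusted p = 0.00337). Trp53inp1 (ENSMUSG00000028211, chr4:11156431-11174379, plus strand) encodes a nuclear stress protein that promotes p53 activity. It was 113 and 183 with the hairpin against 730 in the control and 974 with shDnmt1, and it fell by 2.51 ± 0.12 (log2; adjusted p = 0.00258). Pmaip1 (ENSMUSG00000024521, chr18:66458604-66465550, plus strand), which encodes the BH3-only protein Noxa, was 211 and 219 with the hairpin against 483 and 429, the smallest change among the 9 at -1.06 ± 0.12 (log2; adjusted p = 0.00500).

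Taken as single pairs of libraries, 9 of 10 genes were at least 1.5-fold lower in shp53 against the control, as were 11.4% of all genes, and 9 of 10 in shp53+shDnmt1 against shDnmt1, as were 10.5%. In both pairs Plk2 was the exception. For the same 9 genes both hairpin libraries were below the 4 MEF libraries without it (23.7% of all genes), and for 7 they were also below 5C (12.8%). Within the hairpin libraries, Trp53inp1, Fas and Btg2 were at least 1.5-fold higher with shDnmt1 than without (5.06% of all genes), at 1.62, 1.71 and 1.81-fold, and no gene of the 10 was lower by that fold (4.10%). The MEF test rested on 1 residual degree of freedom and on the variance trend over all genes. Without that trend, limma passed none of the 10 and none of all genes, although the same 9 had an unadjusted p under 0.05 (34.6% of all genes did). The adjusted p was then 0.0505 to 0.0507 for the 9.

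**Figure D2:**
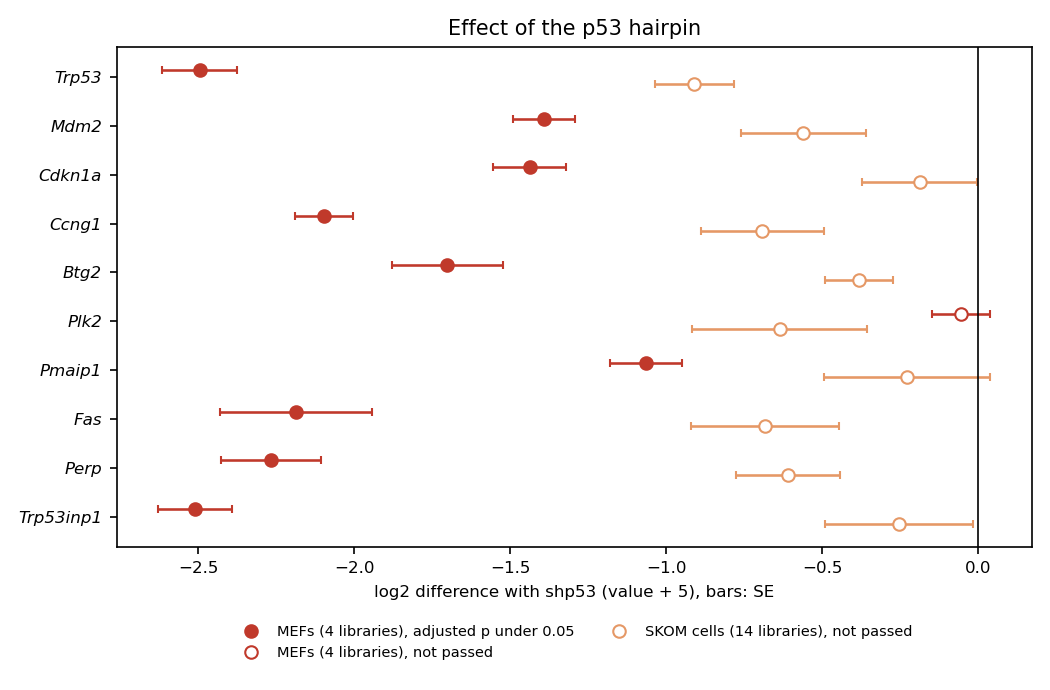
Log2 difference with the p53 hairpin (x axis, on value + 5) for each gene (y axis), in MEFs (4 libraries) and in SKOM cells (14 libraries); points are limma estimates, bars are standard errors, and filled points have an adjusted p under 0.05. The MEF estimates lie between -2.51 and -1.06 except for Plk2 at -0.05, and the SKOM estimates lie between -0.91 and -0.19.

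Beyond these genes, 37 of 42 further p53 targets were tested in MEFs, and 14 fell and 0 rose with the hairpin (median log2 difference -0.31, against -0.01 for all genes). By function, 2 of 8 arrest and feedback genes, 6 of 11 death genes, 2 of 4 repair genes and 4 of 14 metabolism and stress genes fell. Ephx1, an epoxide hydrolase, was 516 and 854 with the hairpin against 1932 and 1984 in the matched libraries (log2 difference -1.55 ± 0.17, adjusted p = 0.00494). Zmat3, an RNA-binding protein induced by p53, was 373 in both hairpin libraries against 935 and 778 (-1.18 ± 0.11, adjusted p = 0.00411). Eda2r, a death receptor of the TNF receptor family, was 222 and 270 against 571 and 495 (-1.10 ± 0.15, adjusted p = 0.00747). These 3 genes were named for their large changes in these same libraries, so their low values in both hairpin libraries are no further evidence. The 20 cell cycle genes that p53 is known to lower through p21 all rose, with a median log2 difference of 1.22. Ccna2, which encodes cyclin A, was 2156 and 1787 with the hairpin against 767 and 515 (1.64 ± 0.11, adjusted p = 0.00305), and Mki67, a proliferation marker, was 4403 and 2966 against 1590 and 857 (1.63 ± 0.11, adjusted p = 0.00297). Of 18 p53 regulators tested, the checkpoint kinase gene Chek1 (1.15 ± 0.13, adjusted p = 0.00536) and Cdkn2a (0.52 ± 0.14, adjusted p = 0.0485), which encodes the Mdm2 inhibitor Arf, rose, and Mdm4, the partner of Mdm2, fell by 0.44 ± 0.10 (adjusted p = 0.0318). Among other lists, 4 of 12 immediate early genes fell and 1 rose with the hairpin, and 0 of 10 interferon-stimulated genes passed. The summed level of 11 fibroblast markers was 96353 and 110567 with the hairpin against 127731 to 166648 without, and its part in these results was not tested.

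In SKOM cells the hairpin library had the lowest value of its 7 for all 10 genes, in Vc- as in Vc+, but no gene passed the test. In both tables at once 13.8% of all genes had this order (24.6% in Vc- and 22.7% in Vc+), and with the MEF hairpin libraries added (5C left out) 9 of 10 genes did, against 8.71% of all genes. The additive model over 14 SKOM libraries, with 8 residual degrees of freedom, gave negative log2 differences for all 10 genes, with a median of -0.59 against 0.01 for all genes. None passed lower (0.00934% of 10711 genes, a single gene, did) and none higher (0%), while 7 had an unadjusted p under 0.05 in limma, as did 10.5% of all genes. Trp53 came closest, at -0.91 ± 0.13 (adjusted p = 0.0520).

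Among the targets the estimates were furthest below 0 for Ccng1, Fas, Plk2, Perp and Mdm2. Perp was 876 in the Vc- hairpin library against 1293 to 1530 in the other 6, and 1074 against 1625 to 2596 in Vc+. Fas was 58 against 98 to 118 in Vc-, and 73 against 106 to 267 in Vc+. Both were clear of the other libraries of their table, with log2 differences of -0.61 ± 0.17 (adjusted p = 0.327) and -0.68 ± 0.24 (adjusted p = 0.399). Mdm2 was 1029 against 1511 to 1694 in Vc-, and 1010 against 1463 to 3173 in Vc+, a log2 difference of -0.56 ± 0.20 (adjusted p = 0.399). Plk2, which held its level in the MEF hairpin libraries, was 407 against 564 to 656 in Vc- and 393 against 605 to 1484 in Vc+, a log2 difference of -0.64 ± 0.28 (adjusted p = 0.466). Ccng1 was 8450 against 10782 to 19681 in Vc- and 10302 against 13535 to 18103 in Vc+ (-0.69 ± 0.20, adjusted p = 0.340), where 19681 is the highest value of the Vc- scale. Against shDnmt1 alone the log2 ratio of Ccng1 was -0.35 in Vc- and -0.81 in Vc+. Given the wide steps of its scale, its place among these genes was not resolved.

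The other 4 targets had estimates nearer 0. Cdkn1a, the p21 gene, was 1968 in the Vc- hairpin library against 2044 to 2701, and 2418 against 2729 to 4779 in Vc+. Both hairpin values lay just under the range of the other libraries, and the log2 difference was -0.19 ± 0.18 (95% interval -0.59 to 0.21, adjusted p = 0.712). Trp53inp1 was 757 against 853 to 1025 in Vc-, and 783 against 1011 to 2468 in Vc+ (-0.25 ± 0.24, adjusted p = 0.697). Pmaip1 was 202 against 259 to 337 in Vc-, and 230 against 243 to 686 in Vc+ (-0.23 ± 0.27, adjusted p = 0.762). Btg2 was 212 against 254 to 316 in Vc-, and 248 against 364 to 479 in Vc+, with a smaller error (-0.38 ± 0.11, adjusted p = 0.340). Against shDnmt1 alone, 4 of 10 genes were at least 1.5-fold lower in Vc- (Trp53, Perp, Fas and Plk2; 3.55% of all genes) and 4 in Vc+ (Trp53, Perp, Ccng1 and Plk2; 4.23%). A difference of the hairpin effect between the media passed limma's test for none of the 10 genes (0% of all genes higher and 0.0373% lower with vitamin C), and for none at an unadjusted p under 0.05 (3.50% of all genes).

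The additive model had no term for a Tet1CD effect that differed between the media. With such a term, 6 of the 10 genes passed lower (Trp53, Perp, Fas, Ccng1, Mdm2 and Plk2), with the same estimates, among 344 lower and 109 higher genes in all. The sum of the immediate early genes was also lowest in the hairpin library, at 3052 against 3475 to 3875 in Vc- and 3136 against 4213 to 6604 in Vc+, as was that of the fibroblast markers, at 41926 against 43216 to 49829 and 39459 against 48938 to 63778. Their part in these results was not tested.

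The hairpin effect was larger in MEFs than in SKOM cells for 7 of the 10 genes, in a fit over all 21 libraries with 9 residual degrees of freedom that tested the difference itself. Of 10238 genes, 1.11% passed in this direction and 0.889% in the other. Trp53 differed by -1.59 ± 0.19 (log2; adjusted p = 0.000771). Among the targets the difference was widest for Trp53inp1 (-2.26 ± 0.34, adjusted p = 0.00366), followed by Perp (-1.66 ± 0.26, adjusted p = 0.00474), Fas (-1.50 ± 0.35, adjusted p = 0.0404), Ccng1 (-1.40 ± 0.29, adjusted p = 0.0268), Btg2 (-1.32 ± 0.20, adjusted p = 0.00366) and Cdkn1a (-1.25 ± 0.27, adjusted p = 0.0311). Mdm2 (-0.83 ± 0.29, 95% interval -1.44 to -0.22, adjusted p = 0.160) and Pmaip1 (-0.84 ± 0.38, -1.65 to -0.03, adjusted p = 0.288) did not pass. Plk2 had the opposite sign (0.58 ± 0.39, -0.27 to 1.43, adjusted p = 0.503). Like the additive model, this fit had no term for a Tet1CD effect that differed between the media. Such a difference is given below for Mdm2, Pmaip1, Plk2 and Fas, and its part in which genes passed here was not tested. The MEF and SKOM hairpin libraries also differed in how far Trp53 itself was lowered, and in SKOM cells the hairpin was present only beside shDnmt1. The call of Fas was lost with a pseudocount of 20 (log2 difference -1.07, adjusted p = 0.103) and without the variance trend (adjusted p = 0.0508).

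Of 35 further p53 targets tested, 4 differed in this direction (Ephx1, Ddit4, Zmat3 and Pidd1) and 0 in the other, with a median log2 difference of -0.28 against 0.00 for all genes. In SKOM cells alone 0 of 37 further targets passed (median -0.21), and 0 of 20 repressed cell cycle genes passed although all 20 estimates were positive, from 0.10 to 0.57 (median 0.35). Their summed level was highest in the hairpin library, at 14437 against 7538 to 11910 in Vc- and 28031 against 9501 to 25038 in Vc+. Of these 20, 5 rose more in MEFs than in SKOM cells, including Ccna2 (1.30 ± 0.28, adjusted p = 0.0291) and Aurkb (1.20 ± 0.27, adjusted p = 0.0370), which encodes a mitotic kinase.

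**Figure D3:**
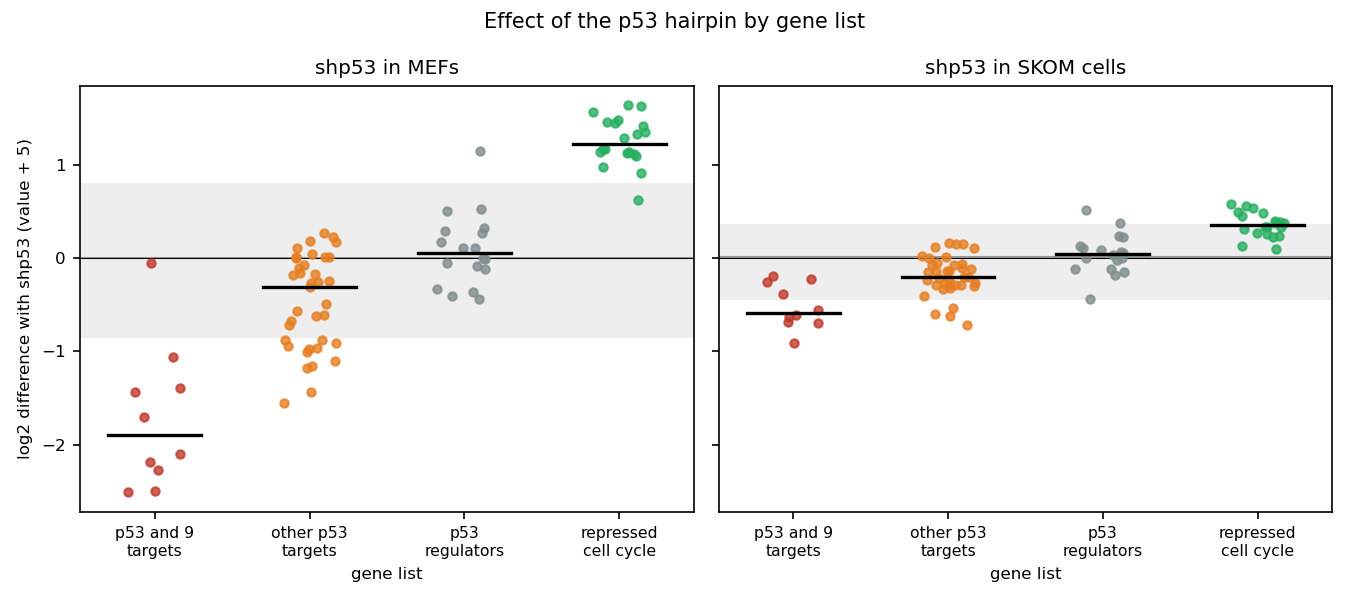
Log2 difference with the p53 hairpin (y axis, on value + 5) for the genes of 4 lists (x axis), in MEFs (left) and SKOM cells (right); each point is a gene, black bars are list medians, and the grey band spans the 5th to 95th percentile of all genes tested (-0.84 to 0.79 in MEFs, -0.44 to 0.36 in SKOM cells). The list medians are -1.90, -0.31, 0.05 and 1.22 in MEFs and -0.59, -0.21, 0.04 and 0.35 in SKOM cells.

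In SKOM cells with vitamin C, Tet1CD raised Pmaip1, Plk2, Fas, Mdm2, Trp53inp1 and Cdkn1a by between 1.54 and 2.44-fold and lowered Trp53 itself. These were 6 of 10 genes higher (20.7% of 12021 genes were) and 1 lower (23.6% were) in the Vc+ table fitted alone. In the Vc- table, limma passed none as higher (7.25% of 10722 genes) and Trp53 as lower (7.38%), with Btg2 the only gene of the 10 higher at an unadjusted p under 0.05. Each of these fits had 2 residual degrees of freedom. For 7 of 10 genes the 3 Tet1CD libraries were all above the 4 others in Vc+ (25% of all genes), and for 3 in Vc- (Trp53inp1, Pmaip1 and Btg2; 15.3%).

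In Vc+, Pmaip1, the Noxa gene, reached 568, 675 and 686 with Tet1CD, against 230 to 286 in the 4 other libraries, a rise of 2.44-fold (1.28 ± 0.09, adjusted p = 0.000475). In Vc- it was 309 to 337 with Tet1CD against 202 to 306 without (0.19 ± 0.08, adjusted p = 0.165). Plk2 was 1136, 1367 and 1484 against 393 to 692 in Vc+ (1.04 ± 0.12, adjusted p = 0.00182), and 564 to 656 against 407 to 614 in Vc- (0.01 ± 0.07, adjusted p = 0.899). With vitamin C both genes were well apart from the other libraries, whereas without it the ranges of Plk2 overlapped and those of Pmaip1 nearly met. Fas was 197, 215 and 267 with Tet1CD against 73 to 142 in Vc+ (0.86 ± 0.10, adjusted p = 0.00159), and 98 to 118 against 58 to 114 in Vc- (0.03 ± 0.11, adjusted p = 0.875). Mdm2 was 2595, 2732 and 3173 against 1010 to 1719 in Vc+ (0.85 ± 0.08, adjusted p = 0.000967), and 1597 to 1694 against 1029 to 1597 in Vc- (0.11 ± 0.06, adjusted p = 0.217). The death receptor and the p53 antagonist thus had the same pattern as Pmaip1 and Plk2. Cdkn1a was 3633, 4586 and 4779 with Tet1CD against 2418 to 2946 in Vc+ (0.62 ± 0.12, adjusted p = 0.00865), and 2191 to 2701 against 1968 to 2546 in Vc- (0.10 ± 0.09, adjusted p = 0.502). Trp53inp1 was 1276 and 1328 in 2 Tet1CD libraries of Vc+ and 2468 in the third, the one with Dnmt1, against 783 to 1046 (0.64 ± 0.20, adjusted p = 0.0414). Its call was lost without the variance trend (adjusted p = 0.0757) and depended on a pair of libraries. Without the Vc+ Dnmt1 or the Vc+ Tet1CD+Dnmt1 library its difference was 0.32 and did not pass, and Cdkn1a (0.55) also missed the threshold. In the fits of 1 table, leaving out either library of a pair differing only in Tet1CD gave the same estimate. That also held for the test between the media below, so such a pair of omissions is a single check.

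Perp was 1786, 2422 and 2596 with Tet1CD in Vc+ against 1074 to 1818 (0.38 ± 0.14, adjusted p = 0.0700), and Btg2 was 379, 467 and 479 against 248 to 372 (0.25 ± 0.10, adjusted p = 0.0906). Ccng1 was 13535 in 2 of the Tet1CD libraries and 18103 in the third, against 10302 to 18103, which is a move of 1 step of the scale (-0.28 ± 0.11, adjusted p = 0.0843). These 3 genes did not pass, but each passed under some alternatives. Perp (0.43, adjusted p = 0.0444) and Btg2 (0.31, adjusted p = 0.0499) passed with scaled libraries, and also without the Vc+ shDnmt1 library (Perp 0.58, adjusted p = 0.00368; Btg2 0.35, adjusted p = 0.0278) or the Vc+ Tet1CD+shDnmt1 library (adjusted p = 0.00378 and 0.0280). Ccng1 passed as lower (-0.42, adjusted p = 0.0404 and 0.0423) without the Vc+ Dnmt1 or the Vc+ Tet1CD+Dnmt1 library. In Vc- Ccng1 was 10782 in all 3 Tet1CD libraries against 8450 to 19681 in the other 4 (-0.58 ± 0.16, adjusted p = 0.0569). It passed as lower (-0.87, adjusted p = 0.000832 and 0.000920) without the Vc- shDnmt1 or the Vc- Tet1CD+shDnmt1 library. Those p-values rested on tied values, 10782 with Tet1CD and 19681 in the control and Dnmt1 libraries, which are 1 step of the scale apart. Trp53 was 803, 962 and 1076 with Tet1CD, below the 1194 to 1365 of the control, Dnmt1 and shDnmt1 libraries and above the 621 of the hairpin library, and fell by 0.45 ± 0.11 (log2; adjusted p = 0.0180). In Vc- it fell by 0.32 ± 0.08 (adjusted p = 0.0382). So the transcript of p53 was lower in the libraries in which 6 of its targets were higher. The Trp53 call was lost in Vc+ without the Dnmt1 or the Tet1CD+Dnmt1 library (-0.50, adjusted p = 0.0847 and 0.0834), and in Vc- without any of the Dnmt1, shDnmt1, Tet1CD+Dnmt1 and Tet1CD+shDnmt1 libraries (-0.37 to -0.23, adjusted p = 0.146 to 0.227) or without the variance trend (adjusted p = 0.0956).

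**Figure D4:**
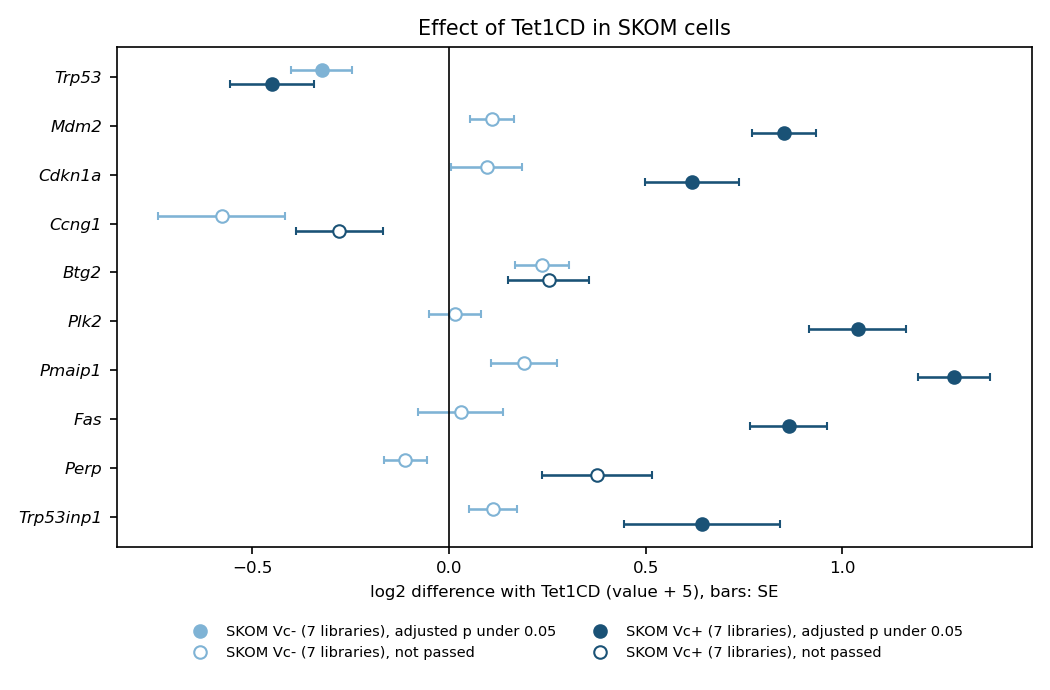
Log2 difference with Tet1CD (x axis, on value + 5) for each gene (y axis) in the 7 Vc- and the 7 Vc+ libraries, each table fitted by itself; points are limma estimates, bars are standard errors, and filled points have an adjusted p under 0.05. Pmaip1, Plk2, Fas and Mdm2 lie at 0.85 to 1.28 in Vc+ and at 0.01 to 0.19 in Vc-, while Trp53 lies below 0 in both.

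Tested as a difference between the media, the Tet1CD effect was larger with vitamin C for 4 of the 10 genes (8.57% of 10711 genes) and smaller for none (8.28%). These were Pmaip1 (1.09 ± 0.12, adjusted p = 0.00114), Plk2 (1.02 ± 0.15, adjusted p = 0.00316), Fas (0.83 ± 0.15, adjusted p = 0.00712) and Mdm2 (0.74 ± 0.10, adjusted p = 0.00226). Cdkn1a (0.52 ± 0.17, 95% interval 0.15 to 0.90, adjusted p = 0.0601), Perp (0.49 ± 0.16, 0.13 to 0.85, adjusted p = 0.0684) and Trp53inp1 (0.53 ± 0.23, 0.01 to 1.05, adjusted p = 0.148) had estimates in the same direction. Trp53 (-0.13 ± 0.14, -0.44 to 0.19, adjusted p = 0.572), Ccng1 (0.30 ± 0.23, -0.22 to 0.81, adjusted p = 0.403) and Btg2 (0.02 ± 0.12, -0.26 to 0.29, adjusted p = 0.936) were nearer 0. With each library scaled to its table's median ratio, or without the Vc+ shDnmt1 or Vc+ Tet1CD+shDnmt1 library, Cdkn1a and Perp also passed (adjusted p = 0.00227 to 0.0468).

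In the additive model over both media, 6 of 10 genes were higher with Tet1CD (20.3% of 10711 genes) and 2 lower (24.9%). Pmaip1 (0.74 ± 0.17), Plk2 (0.53 ± 0.18), Mdm2 (0.48 ± 0.13), Fas (0.45 ± 0.15), Cdkn1a (0.36 ± 0.12) and Btg2 (0.24 ± 0.07) rose, with adjusted p from 0.00461 to 0.0298. Trp53 (-0.39 ± 0.08, adjusted p = 0.00269) and Ccng1 (-0.43 ± 0.12, adjusted p = 0.0152) fell. Outside the hairpin libraries Ccng1 took only 19681 and 10782 in Vc- and 18103 and 13535 in Vc+, which are neighbouring steps of its scale. The Vc- shDnmt1 library, without Tet1CD, was also at 10782, so the size of the Ccng1 fall was not resolved. The number that rose was 3 without the Vc+ Flag+shLuc, Dnmt1, shDnmt1 or Tet1CD library, because Fas, Plk2 and Cdkn1a then missed the threshold, and 3 to 7 over all libraries left out in turn.

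Further p53 targets were also counted in each medium. Of all genes, 20.7% rose and 23.6% fell with Tet1CD in Vc+, and 7.25% and 7.38% in Vc-. Between the media, 8.57% responded more upward and 8.28% more downward with vitamin C. In Vc+ 19 of 42 rose with Tet1CD and 2 fell (median 0.25, against -0.07 for all genes), and in Vc- 3 of 37 rose and 4 fell (median -0.04, against -0.01). Gdf15, a stress-induced cytokine listed in the SKOM cells only in the Vc+ table, was 169, 240 and 302 with Tet1CD against 6 to 21 without (3.39 ± 0.24, adjusted p = 0.00044). Sfn, which encodes the cell cycle inhibitor 14-3-3 sigma, was 350, 363 and 423 against 50 to 90 in Vc+ (2.48 ± 0.19, adjusted p = 0.000567), and 101, 128 and 141 against 34 to 74 in Vc- (1.06 ± 0.18, adjusted p = 0.0175). Tested between the media, 9 of 37 targets responded more upward with vitamin C and 0 more downward, among them Hic1, Sfn and Epha2. The repressed cell cycle genes moved the other way: 19 of 20 fell with Tet1CD in Vc+ (median -1.05) and 14 of 20 in Vc- (median -0.52), and 7 of 20 fell more with vitamin C. Of 18 p53 regulators, 7 fell in Vc+, with Chek1 (-0.79 ± 0.12, adjusted p = 0.00413) and Chek2 (-0.73 ± 0.14, adjusted p = 0.00754) furthest down, and 2 rose.

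Other gene groups moved with Tet1CD in the same libraries, and the shares of all genes just given apply to their counts too. All 10 interferon-stimulated genes rose in Vc+, with a summed level of 4634 to 6210 with Tet1CD against 938 to 1378 without, and 5 of 6 rose in Vc-, at 704 to 728 against 315 to 361. Macrophage markers (4 of 7 listed in Vc+ and 3 of 7 in Vc-) summed to 1952 to 2614 against 293 to 369 in Vc+, and to 541 to 633 against 258 to 337 in Vc-, while the defining marker Adgre1 was in neither list. Immediate early genes summed to 5827 to 6604 against 3136 to 4637 in Vc+, and to 3748 to 3875 against 3052 to 3798 in Vc-. Other groups fell or were split. Of the epithelial markers, 5 of 6 fell in Vc+, among them the adhesion gene Epcam (-1.73 ± 0.12, adjusted p = 0.000408), and of 5 in Vc-, 1 fell and 1 rose. The single endothelial marker listed, Tek, was 386 to 400 with Tet1CD against 544 to 634 in Vc+ (-0.58 ± 0.09, adjusted p = 0.00382). Of 11 fibroblast markers 5 rose and 0 fell in Vc+, with the collagen gene Col3a1 furthest up (1.49 ± 0.11, adjusted p = 0.000486), and 2 rose and 1 fell in Vc-. Tested between the media, 2 of 5 epithelial markers and Tek responded more downward with vitamin C, and 4 of 11 fibroblast markers more upward. The part of these groups in the p53 target results was not tested.

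In MEFs, Tet1CD was a single library and is described against the control without a test. Pmaip1 was 1056 against 483 (2.19-fold), Perp was 901 against 499 (1.81-fold) and Fas was 149 against 95 (1.57-fold). These 3 of 10 genes passed 1.5-fold upward, as did 6.04% of all genes, and none passed downward (7.17%). Cdkn1a was 3531 against 2386, just under that fold at 1.48, and Trp53 was 888 against 1008. Other marker lists stood high in the same library: the 2 epithelial markers listed summed to 500 against 40 to 187 in the other 6, interferon-stimulated genes to 2224 and macrophage markers to 1382, both the highest outside 5C. Their part in these values was not tested. The Tet1CD library was the highest of the 7 MEF-table libraries for Perp, Mdm2 (2393), Cdkn1a, Plk2 (1650) and Pmaip1. For Mdm2 and Plk2 the Dnmt1 library was close, at 2279 and 1530. The share of all genes that were highest in the Tet1CD library is not given.

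The 5C library had 1 of 10 genes at least 1.5-fold above the MEF control, as did 29.8% of all genes, and 6 at least 1.5-fold below, as did 37.8%. Fas was 544 against 95, a 5.73-fold difference that put it above every other library of its table. Ccng1 was 4388 against 19814, Pmaip1 was 190 against 483, Mdm2 was 1200 against 2279, Btg2 was 163 against 300, Plk2 was 867 against 1464 and Trp53 was 647 against 1008. Ccng1 in 5C lay between the 2 hairpin libraries, and Pmaip1 lay below both. Trp53inp1 was 1089 against 730, the highest of its table, while Perp (533 against 499) and Cdkn1a (1712 against 2386) differed by under 1.5-fold. Interferon-stimulated genes summed to 10987 in 5C against 325 to 2224 in the other MEF-table libraries, and macrophage markers to 4621 against 100 to 1382, and their part in these differences was not tested.

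Apart from the 3 genes that were higher with shDnmt1 among the MEF libraries with the p53 hairpin, none of the 10 passed the thresholds with Dnmt1 or shDnmt1. In that pair Trp53 itself was 186 against 157 (1.18-fold), and the median log2 ratio of the 10 genes was 0.285. Fas, 1 of the 3, was low there, at 24 against 14. The part of the higher Trp53 level in these differences was not tested. In MEFs without that hairpin, none of the 10 differed by 1.5-fold with Dnmt1 (1.39% of all genes higher, 1.38% lower) or with shDnmt1 (2.53% and 3.07%). The furthest of these were Perp with shDnmt1 at 343 against 499, and Trp53inp1 at 974 against 730. In SKOM cells none of the 10 passed for shDnmt1 (0% of all genes higher and 0.0187% lower) or for Dnmt1 (0% in either direction) in limma, and none had an unadjusted p under 0.05 (3.58% and 0.784% of all genes). A difference of the shDnmt1 effect between media passed for none (0% in either direction), with Fas alone under an unadjusted 0.05 (3.81% of all genes). The estimates ran from -0.22 to 0.04 for shDnmt1 and from -0.15 to 0.24 for Dnmt1, the last being Trp53inp1 (0.24 ± 0.18, 95% interval -0.15 to 0.64).

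The tables were normalized separately, so levels were compared across them without a test, as log2 ratios of libraries with the same construct, centred on the median of all shared genes. Between Vc+ and Vc-, none of the 10 genes was higher in all 7 pairs (6.75% of all genes) or lower in all 7 (8.10%). The pairs fell apart by Tet1CD: Plk2 had a median ratio of 0.75 in the 3 pairs with Tet1CD and -0.52 in the 4 without, Pmaip1 0.47 and -0.66, Fas 0.31 and -0.36, and Mdm2 0.25 and -0.58. For Trp53 these medians were -0.15 and 0.00. Between SKOM cells and MEFs, in 5 pairs, Perp was higher in all pairs in Vc- (by 0.84 to 3.64, log2) and in Vc+ (by 1.29 to 3.34), and Plk2 was lower in all pairs in Vc- (by -1.40 to -0.97) and in Vc+ (by -2.04 to -0.39). Trp53 and Trp53inp1 were also higher in all 5 in Vc-, making 3 of 10 higher (30.9% of all genes) and 1 lower (31.6%). For Trp53 this was by 0.02 to 1.56 with a median of 0.03, the largest being the pair with the p53 hairpin. Without centring, Trp53 was higher in 1 of the 5 pairs. Trp53inp1 was higher by 0.15 to 2.32, with a median of 0.50. Pmaip1 was also lower in all 5 in Vc+, making 1 of 10 higher (31.2%) and 2 lower (31.9%).

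Across the 21 libraries the log2 values of the 10 genes, centred by table, correlated positively in all 45 pairs, with Pearson's r from 0.122 to 0.925 and a median of 0.719. Without 5C, r ran from 0.160 to 0.959 over 20 libraries, with a median of 0.852. Plk2 and Trp53 were the least alike (0.160 without 5C), and Trp53inp1 and Btg2 were among the most alike (0.959). The libraries share controls, constructs and tables, so these values only describe this set. Of 8927 genes, those most like Trp53 over the 20 libraries without 5C were Slc19a2 (r = 0.965), Ano1 (0.958) and Ccng1 (0.955), and those most like Mdm2 were Tnfrsf10b (0.979), Ube2h (0.978) and Polk (0.973). Cdkn1a was most like Acox3 (0.971), Adam15 (0.969) and Ephx1 (0.969). With 5C included, Slc19a2 (0.935) stayed first for Trp53 and Acox3 (0.970) for Cdkn1a, whereas Acad11 (0.954) came first for Mdm2 and Pphln1 (0.922) in place of Trp53 for Ccng1.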

How the data were processed

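Total RNA of 21 libraries, 1 per combination of cell stage, medium and construct, was extracted with Trizol and made into TruSeq libraries, per the labels' protocols. Bowtie, RSEM and mm10 are named in the submitters' processing notes. The deposited values are whole numbers that the authors had normalized within each of 3 tables, so they were treated as a score and not as counts; the method of normalization is not given in the sources used here, and sequencing depth is unknown. Totals were 6146080 to 6226138 per library in the MEF table, 4476522 to 4478695 in Vc- and 6611237 to 6614709 in Vc+. The test was limma 3.58.1 in R 4.3.3, with the variance trend, on log2(value + 5) for genes with a mean of at least 10, two-sided, with Benjamini-Hochberg adjustment over all genes and a threshold of 0.05. All 10 genes passed this filter. With 1 library per combination, p-values measure only the spread of these libraries around additive models, which may be technical. Single libraries were set against each other at 1.5-fold without a test. The fits were tested on simulated data. Gene names and positions come from the files (GENCODE M21, mm10), and promoter sequences from RefSeq. All 10 members are named, with up to 4 genes per list and direction of the largest changes past the threshold, and the genes most alike by Pearson's r, among those averaging 50 or more in each table. The values of 1 listed target are not reported here. The members and lists were chosen with earlier results of these data known.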

Additional observations from a re-analysis of the deposited data

Results flagged for a closer look

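The effect of Tet1CD differed between SKOM cells with and without vitamin C, by the interaction term of limma on the log2 scale, for Pmaip1 (1.09), Plk2 (1.02), Fas (0.83) and Mdm2 (0.74). Among the largest such differences of further p53 targets were Hic1 (1.43), a transcriptional repressor, Sfn (1.42) and Epha2 (1.26), a receptor tyrosine kinase. In Vc+, Epha2 reached 1054, 1054 and 1226 with Tet1CD, against 267 to 406 in the other 4 libraries.

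The effect of the p53 hairpin differed between MEFs and SKOM cells, by the same kind of term, for Trp53 (-1.59), Trp53inp1 (-2.26), Perp (-1.66), Fas (-1.50), Ccng1 (-1.40), Btg2 (-1.32) and Cdkn1a (-1.25). Among further targets Ephx1 (-1.26), Ddit4 (-1.02), an inhibitor of mTOR signalling, Zmat3 (-0.90) and Pidd1 (-0.84), a death domain protein, differed in the same direction. Pidd1 was 105 and 123 in the MEF hairpin libraries against 209 to 242 in the other 5 of its table.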

How the results depend on the processing

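Each library combination was present once, so every test borrowed its error from other combinations, and no paired analysis was possible because each group holds 1 library and its replicate number does not come from the labels. Leaving out a library could not be fitted for shp53 in MEFs, since no residual degree of freedom remained, and single pairs stand in its place. The number of the 10 genes lower with shp53 in MEFs was 9, and 0 without the variance trend, where genes called fell from 2561 to 0 in all. In SKOM cells it was 0, and 1 (Trp53) with a minimum mean of 50, with scaled libraries or without the Dnmt1 term, 6 with a term for Tet1CD by vitamin C, and 0 to 1 with a library left out (1 without Vc- Tet1CD, Vc- Tet1CD+Dnmt1 or Vc+ Tet1CD+shDnmt1). All genes called there numbered 1 in the additive model, 2 to 7 under 4 of the alternatives and 453 with that term.

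Genes of the 10 higher with Tet1CD in SKOM cells numbered 6, and 3 to 7 with a library left out. In Vc- alone, 1 was lower, and 0 without the variance trend, with 0 to 1 lower and 0 to 1 higher with a library left out; the lower gene was then Ccng1 in place of Trp53 without Vc- shDnmt1 or Vc- Tet1CD+shDnmt1, Pmaip1 was higher without Vc- Flag+shLuc or Vc- Tet1CD, and genes called in all ran from 5 (without Vc- Dnmt1 or Vc- Tet1CD+Dnmt1) to 2353, against 1568, and were 304 without the trend. In Vc+ alone 6 of the 10 genes were higher, and 4 to 8 with a library left out; all calls ran from 2231 to 5450, against 5319, and for Tet1CD by vitamin C from 761 to 2315, against 1805. Scaled libraries split the latter 1084 higher to 655 lower, against 918 to 887. For shDnmt1 in SKOM cells all calls were 2 and up to 6; for shp53 by vitamin C they were 4, 8 with a pseudocount of 1, 2 without the trend and 0 to 28 with a library left out; for shDnmt1 by vitamin C they were 0, and up to 59.

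Without centring, 6 of the 10 genes were higher in all 7 pairs of Vc+ over Vc-, against 0 with it. For SKOM cells over MEFs, 1 was higher and 2 lower in Vc- (3 and 1 when centred), and 5 higher and 1 lower in Vc+ (1 and 2 when centred). The shares of all genes are not given for the uncentred counts, so these counts are not a result about the 10 genes. Centring takes the median ratio of all shared genes off each pair, and the counts with and without it differ by that shift alone. Among values of single genes, 1797 stayed on their side of the threshold, 35 gained and 40 lost it. None that passed in either setting changed sign, but 74 that did not pass did, such as Tet1CD in Vc- alone for Fas (-0.05 to 0.15 with a library left out) and Cdkn1a (-0.02 to 0.22).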

Other observations

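In the 5C library Cdkn2a was 1717, against 82 to 171 in the other 6 libraries of the MEF table, a gene singled out after its values were seen. It encodes p16 and Arf, which holds back Mdm2. The 20 repressed cell cycle genes summed to 3369 in that library, the lowest of its table, against 5665 with Tet1CD and 20146 to 23960 with the p53 hairpin. The immediate early genes summed to 1332, against 6271 to 7665 in the other 6.

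Gdf15, also singled out after its values were seen, was 349 in the MEF library with Tet1CD, 50 in the control, 62 with Dnmt1, 32 with shDnmt1, 23 with shp53+shDnmt1, 5 with shp53 and 4 in 5C. Its log2 difference with the hairpin was -1.43 ± 0.58 (adjusted p = 0.129 in limma) and did not pass. In Vc+ it was 6 in the hairpin library, 14 to 21 in the other 3 libraries without Tet1CD and 169 to 302 with it.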
